A study of Mus musculus with 9 samples.

Results

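The pancreas-linked miRNAs mmu-miR-375-3p, mmu-miR-216a-5p, mmu-miR-216b-5p, mmu-miR-217-5p and mmu-miR-802-5p are 5 of the 1915 mature names in a table of miRNA read counts from mouse milk fat, and 5 of the 828 names with at least 1 count. They were chosen by name, with their counts in these libraries known, to set a miRNA present at a steady level beside miRNAs seen sporadically. Level, spread and detection over the 9 libraries therefore chose them and are given here as description. miR-375-3p was found in every library, at 2410 to 5356 CPM (counts scaled to the library total). miR-216a-5p, miR-216b-5p and miR-217-5p were almost wholly confined to 1 library. miR-802-5p was found in all 9 libraries and so was not sporadic. It measured 8.73 to 18.8 CPM in 8 of them and was high in the same single library.

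The milk came from primiparous ICR (CD1) dams on lactation day 10, 4 given a high-fat diet (60% of kcal from fat) and 5 given a control diet (10% of kcal from fat), each fed from 4 weeks of age for 4 weeks before mating and then through pregnancy and lactation. Sucrose supplied 7% of the energy of both diets, which held 5.24 kcal per g (high-fat) and 3.85 kcal per g (control). The labels name no genotype beyond this outbred strain, each library is 1 dam, and dams were kept in pairs of the same diet before mating. The fat layer was washed before RNA extraction to take away trapped cells. miRNA totals ran from 1905838 to 3897109 counts in high-fat libraries and from 837817 to 2750482 in control libraries. Levels are given as CPM, a count scaled to the library total. Where a miRNA had 0 counts its level could be as high as that of 3 counts, or 0.770 to 1.57 CPM in high-fat and 1.09 to 3.58 CPM in control libraries, by counting error only. The 8 miRNAs of the secretory epithelium list, led by miR-146b-5p and miR-148a-3p, made up 488089 to 518490 CPM of high-fat libraries and 461066 to 517870 CPM of control libraries. The listed markers of the labelled source were abundant in every library. That list was chosen with earlier results of these data known, so its level is description and does not test the source. High-fat library 3 stood apart from the other high-fat libraries in miRNAs of red cells and striated muscle, as well as in 4 of the 5 pancreas-linked miRNAs, so values by diet are given with and without it. Whether those reads came with the milk of that dam or entered at collection or in library preparation cannot be told apart here, and this limit applies to every value of that library for the chromosome 11 cluster and miR-802-5p. In bulk RNA, fewer cells of a type and less RNA per cell cannot be told apart.

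miRNAs are short RNAs cut from a hairpin precursor, and each pairs with target transcripts mainly through its seed, bases 2 to 8 from the 5′ end, and lowers their output. miR-375 is the best known miRNA of the pancreatic islet, where it restrains insulin secretion and is needed for normal endocrine cell mass, and it is also high in oestrogen receptor-positive breast cancer cells. miR-216a, miR-216b and miR-217 come from 1 gene cluster and mark the enzyme-secreting acinar cells of the exocrine pancreas. miR-802 is found in pancreas, liver, kidney and intestine. It rises in the liver of obese mice.

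The mature sequences of the 4 members that stood high in a single library are shown, 5′ to 3′ with the seed in capitals, because they tell whether reads of one could have been counted as another (RefSeq, GRCm38.p6).
miR-216a-5p: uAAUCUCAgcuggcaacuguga
miR-216b-5p: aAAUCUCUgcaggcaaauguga
miR-217-5p: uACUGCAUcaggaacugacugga
miR-802-5p: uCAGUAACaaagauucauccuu
The seeds of miR-216a-5p and miR-216b-5p differ at 1 base, and 18 of their 22 bases match when aligned without gaps, with at most 6 identical bases in a row. Any other pair among the 4 matched at no more than 9 bases. Among the 1738 mature entries of the RefSeq table no other entry shared any of these 4 seeds.

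The hairpins of miR-216b, miR-216a and miR-217 lie in this order on the plus strand of chromosome 11, at 28746191 to 28746276, 28757012 to 28757083 and 28763728 to 28763835 (GRCm38, GENCODE M21). Those of miR-216a and miR-217 lie in introns of the long non-coding RNA gene Gm12082, and that of miR-216b lies 5357 bases before the start of that gene. An annotated hairpin of the opposite strand, mir-216c, lies within the miR-216b hairpin at 28746198 to 28746266. The hairpin of miR-802 is on the plus strand of chromosome 16 at 93369720 to 93369816, between genes, and 691 bases past the end of the non-coding gene 1810044K17Rik. The hairpin of miR-375 is on the minus strand of chromosome 1 at 74900658 to 74900721, between Cryba2, a lens crystallin gene, and Cfap65.

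miR-375-3p was one of the more abundant miRNAs of milk fat, at rank 39 of 828 names by mean CPM. It measured 4215, 2962, 4294 and 5356 CPM in high-fat libraries 1 to 4, from 9845, 11544, 8685 and 10208 counts. In control libraries 1 to 5 it measured 3521, 3193, 3681, 2410 and 2939 CPM, from 5931, 3974, 10124, 3855 and 2462 counts. High-fat libraries 1, 3 and 4 lay above every control and high-fat library 2 lay among the controls, so the diets overlapped. The mean was 4207 ± 979 CPM in high-fat milk (SD, n = 4) and 3149 ± 503 CPM in control milk (SD, n = 5). The log2 fold change, high-fat over control, was 0.39 ± 0.19 (SE; 95% interval -0.04 to 0.82), with an adjusted p of 0.577 by limma-voom over 312 tested names. miR-375-3p was thus not called, with a difference in means of about the size of the larger SD and an interval of the fold change that includes 0. Without high-fat library 3 the high-fat mean was 4178 ± 1197 CPM (SD, n = 3) and the log2 fold change was 0.36 ± 0.22, with an adjusted p of 0.541 by limma-voom.

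Across all 312 tested names, limma-voom called 0 (0%) at an adjusted p of 0.05, and 31 (9.94%) had an unadjusted p below 0.05. With limma on log2(CPM + 1) values, 2 names passed. Of the 5 pancreas-linked miRNAs only miR-375-3p and miR-802-5p passed the count filter, which asks for a minimum level in 4 or more libraries. Neither was among the 31, at unadjusted p of 0.0684 and 0.238 in limma-voom. The median log2 fold change of all tested names was 0.00, and 61 of the 312 had one at least as high as that of miR-375-3p.

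The steadiness of miR-375-3p was that of other miRNAs at its level. Its coefficient of variation over the 9 libraries was 24.7%, against a median of 30.7% over all 312 tested names, and it ranked 102 from the lowest. Of the 20 tested names within 2-fold of its level, miR-375-3p included, 10 varied less. The 2 names directly above it in mean level were miR-340-5p at 3840 ± 1309 CPM and miR-152-3p, a relative of miR-148a, at 3734 ± 606 CPM (SD, n = 9). The 2 names directly below were miR-23b-3p at 2923 ± 619 CPM and let-7d-5p at 2774 ± 754 CPM. miR-375-3p itself averaged 3619 ± 893 CPM, so that it differed from each of these 4 by less than its own SD.

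The names most like miR-375-3p in log2 CPM over the 9 libraries were miR-205-5p, a miRNA of basal and squamous epithelium, with a Pearson correlation of 0.81, and miR-467e-5p with 0.81. They were followed by miR-669a-3p and miR-669o-3p with 0.78, which had identical counts and cannot be told apart, and by miR-200a-5p, the passenger arm of an epithelial miRNA, with 0.77. The name least like it was miR-421-3p with -0.80. The correlations used CPM with the scaling factors of the limma-voom fit, whereas printed CPM use library totals alone. These correlations describe 9 libraries that share their scaling. The highest were taken from 311 names, whose median correlation was 0.07. In control milk miR-467e-5p fell as low as 2.39 CPM, and miR-669a-3p and miR-669o-3p as low as 0 CPM. Each of these reached 3 counts in 8 libraries only, so their correlations rest in part on values near the floor of counting. miR-205-5p averaged 405 ± 131 CPM in high-fat milk (SD, n = 4) and 324 ± 106 CPM in control milk (SD, n = 5). miR-200a-5p averaged 693 ± 47.6 CPM in high-fat milk and 640 ± 69.4 CPM in control milk. Without high-fat library 3 the high-fat means were 374.8 ± 141 CPM for miR-205-5p and 684 ± 53.5 CPM for miR-200a-5p (SD, n = 3).

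The 3 acinar miRNAs of the chromosome 11 cluster were read almost only in high-fat library 3. miR-217-5p, known in the pancreas and as a repressor of Sirt1, had 388 counts there, which is 192 CPM (95% Wilson interval 174 to 212). It had 1 count in control library 5 and 0 in each of the other 3 high-fat and 4 control libraries. miR-216b-5p had 127 counts, 62.8 CPM (52.8 to 74.7), in high-fat library 3 and 0 counts in every other library of either diet. miR-216a-5p had 115 counts, 56.9 CPM (47.4 to 68.2), in high-fat library 3. It had 1 count in high-fat library 2, 1 count in control library 3 and 0 in the remaining libraries. For each of the 3, high-fat library 3 lay far above the other high-fat libraries, while those and the controls were at or near 0 and overlapped. The intervals cover counting error only.

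**Figure D1:**
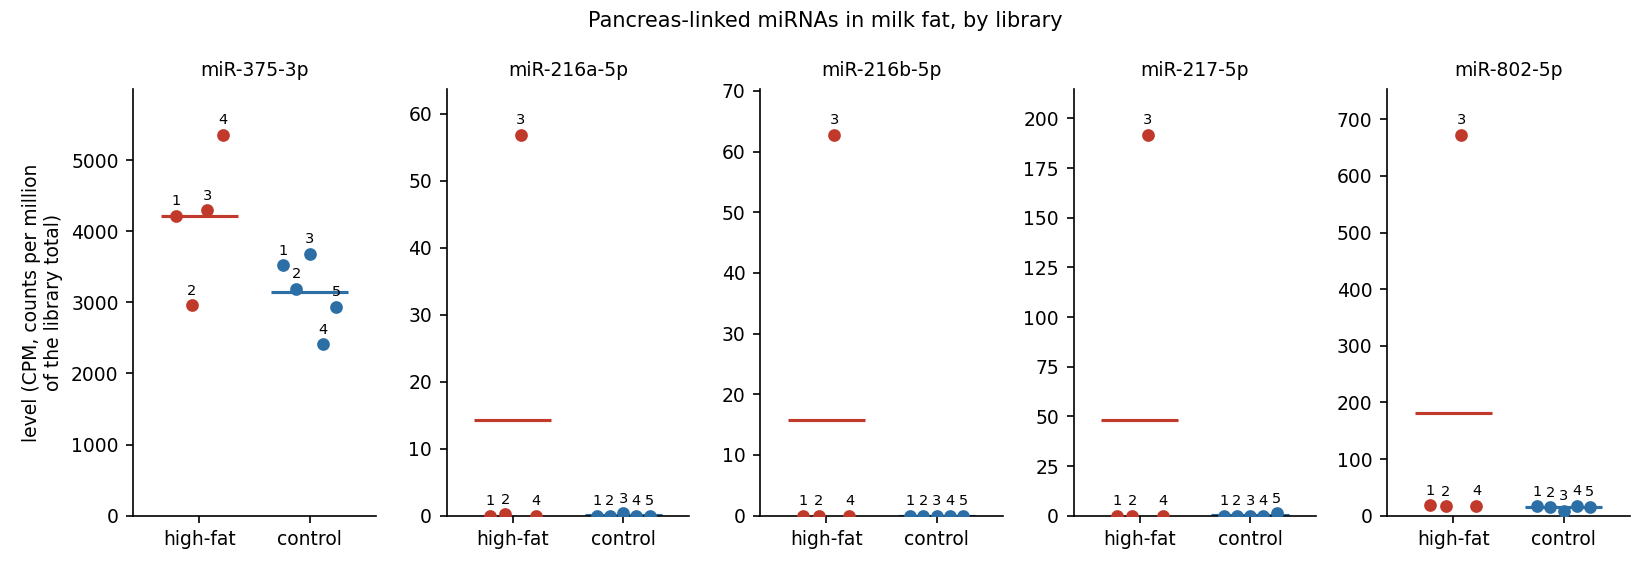
Level of each of the 5 pancreas-linked miRNAs in CPM (counts scaled to the library total), 1 point per library with its number, and a bar at the mean of each diet (4 high-fat and 5 control libraries). miR-375-3p spans 2962 to 5356 CPM in high-fat and 2410 to 3681 CPM in control libraries, while the other 4 miRNAs are high in high-fat library 3 and low or at 0 elsewhere.

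Both arms of the hairpins were compared in that library. The 5p arm, which is the listed member, held 388 of 390 counts of mir-217, or 99.5% (95% Wilson interval 98.1% to 99.9%). It held 127 of 132 counts of mir-216b, or 96.2% (91.4% to 98.4%), and all 115 counts of mir-216a (96.8% to 100%). These 3p counts, 5 of miR-216b-3p and 2 of miR-217-3p, also came from high-fat library 3, and those 2 names had 0 counts in every other library. miR-216a-3p and both arms of the opposite-strand mir-216c had 0 counts in all 9 libraries. The 3 members were unequal within the cluster. miR-217-5p made up 61.6% of their 630 counts (57.7% to 65.3%), miR-216b-5p 20.2% (17.2% to 23.5%) and miR-216a-5p 18.3% (15.4% to 21.5%).

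**Figure D2:**
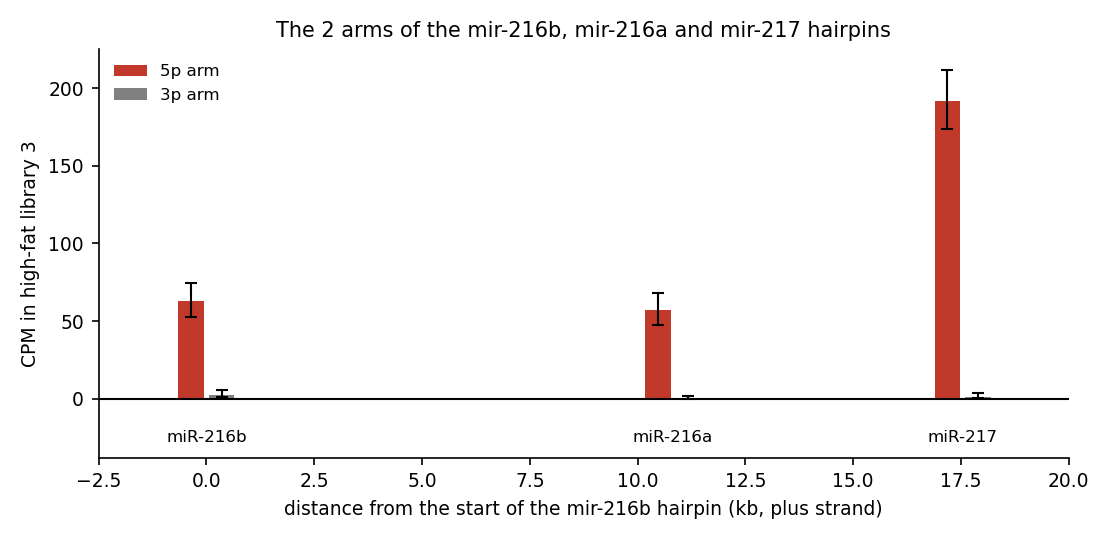
CPM of the 5p and 3p arms in high-fat library 3, plotted at the distance in kb of each hairpin's start from the start of the mir-216b hairpin, with 95% Wilson intervals as error bars. The 5p arms reach 62.8, 56.9 and 192 CPM for miR-216b, miR-216a and miR-217, and the 3p arms stay at or below 2.47 CPM.

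miR-802-5p was present in every library. It measured 18.8, 16.7, 673 and 17.8 CPM in high-fat libraries 1 to 4, from 44, 65, 1361 and 34 counts. In control libraries 1 to 5 it measured 17.2, 14.5, 8.73, 17.5 and 15.5 CPM, from 29, 18, 24, 28 and 13 counts. High-fat library 3 stood far above the rest, high-fat libraries 1 and 4 lay just above the highest control with intervals that overlap it, and high-fat library 2 lay among the controls. The mean was 182 ± 328 CPM in high-fat milk (SD, n = 4) and 14.7 ± 3.56 CPM in control milk (SD, n = 5). Its log2 fold change was 1.49 ± 1.19 (SE; 95% interval -1.14 to 4.12), with an adjusted p of 0.690 by limma-voom over 312 names. Without high-fat library 3 the high-fat mean was 17.8 ± 1.08 CPM (SD, n = 3) and the log2 fold change was 0.35 ± 0.31, so 1 library decided both values. The adjusted p by limma-voom was then 0.712, and over all alternatives it ran from 0.473 to 0.858.

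The 5p arm held 1616 of 1624 counts of mir-802, or 99.5% (95% Wilson interval 99.0% to 99.8%). Of the 8 counts of miR-802-3p, 6 were in high-fat library 2, 1 in high-fat library 3 and 1 in control library 1. The share of the 5p arm was therefore 91.5% (82.8% to 96.1%) in high-fat library 2 and 99.9% (99.6% to 100%) in high-fat library 3. For mir-375 the 3p arm is the member, and miR-375-5p had 0 counts beside 66628 of miR-375-3p.

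miR-216a-5p, miR-216b-5p and miR-217-5p did not reach the count filter and were tested only in the fit of all 828 names with a count. Their log2 fold changes there were 1.19 ± 1.16, 1.06 ± 1.24 and 0.85 ± 1.52 (SE), with almost all counts in high-fat library 3. Their adjusted p there was 0.741, 0.793 and 0.860 by limma-voom. In that fit 4 names were called, none of them a pancreas-linked miRNA, and 147 of the 828 had an unadjusted p below 0.05. Without high-fat library 3 the counts left were 1 of miR-216a-5p in each diet, 0 of miR-216b-5p in both, and 0 of miR-217-5p in high-fat against 1 in control milk.

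The share of a miRNA's summed CPM that its highest library held was computed for all 513 names with 10 or more counts. An even spread would give 11.1%, and the median was 21.3%. miR-216b-5p at 100%, miR-217-5p at 99.4% and miR-216a-5p at 98.9% ranked 1 to 3, and miR-802-5p at 84.1% ranked 7, all with high-fat library 3 as the highest. miR-375-3p ranked 374 at 16.4%, with high-fat library 4 as the highest. As the members were chosen for this contrast, the ranks are a description.

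**Figure D3:**
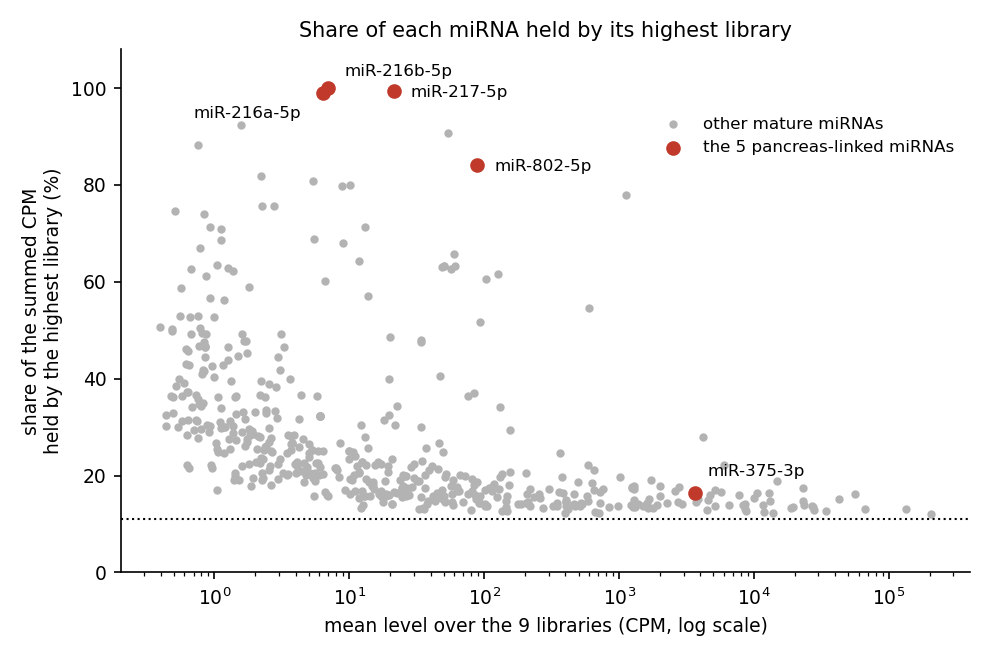
Share of the summed CPM held by the highest of the 9 libraries (%) against mean level over the 9 libraries (CPM, log scale) for 513 mature miRNAs, with the 5 pancreas-linked miRNAs in red and the even share of 11.1% as a dotted line. miR-216a-5p, miR-216b-5p and miR-217-5p sit at 98.9% to 100%, miR-802-5p at 84.1% and miR-375-3p at 16.4%.

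Markers of other cell types were read beside these values, since high-fat library 3 also stood apart in several of them. The 4 red cell miRNAs, all detected, summed to 20.1 to 650.2 CPM in high-fat and 22.7 to 158 CPM in control libraries, with the 650.2 CPM in high-fat library 3. Of the 6 striated muscle miRNAs 4 were detected, and miR-206-3p and miR-208a-3p were at 0 in every library. They summed to 97.9 CPM in high-fat library 3 and 2.31 to 5.25 CPM in its 3 diet mates, against 4.36 to 13.7 CPM in controls. miR-133a-3p, a skeletal and heart muscle miRNA, carried most of this, with 146 counts in high-fat library 3, while no other library had more than 8. miR-499-5p, a heart and slow muscle miRNA, went the other way, with 0 counts in high-fat library 3 and 1, 4 and 0 in high-fat libraries 1, 2 and 4, against 4, 9, 2, 8 and 4 in control libraries 1 to 5. The 5 leukocyte miRNAs, all detected, summed to 77.7 to 11418 CPM in high-fat and 356 to 762 CPM in control libraries, with 2874 CPM in high-fat library 3. The lymphocyte miRNA miR-150-5p measured 439 CPM there and at most 15.8 CPM elsewhere. High-fat library 1 held the highest leukocyte sum, 11418 CPM. High-fat library 3 was the highest of all libraries for 2 of the 5 leukocyte miRNAs, miR-150-5p and miR-155-5p. The part of red cell, muscle and leukocyte RNA in the reads of the cluster and of miR-802-5p was not tested.

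The islet list and the list of other organs that express miR-802 were mixed in high-fat library 3. Of 15 islet and endocrine miRNAs 13 were detected, with miR-153-3p and miR-7a-2-3p at 0 in every library, and they summed to 13134 to 19039 CPM in high-fat and 14768 to 19272 CPM in control libraries. High-fat library 3, at 14103 CPM, lay inside the range of the other high-fat libraries and, like high-fat libraries 1 and 4, below every control. Most of the islet sum came from miR-182-5p, miR-183-5p and miR-96-5p, which many epithelia make, so it says little of the rarer members. Of the 13 detected, 2 were highest of all 9 libraries in high-fat library 3 and 2 were lowest. The highest were miR-184-3p at 6.43 CPM, against 0.594 to 4.36 CPM elsewhere, and miR-204-5p at 3.96 CPM, against 0 to 2.91 CPM elsewhere, from 13 and 8 counts. The lowest were miR-7a-5p at 1413 CPM, against 1442 to 2083 CPM elsewhere, and miR-132-3p at 6.43 CPM, against 7.16 to 36.2 CPM elsewhere. miR-184-3p, miR-204-5p and miR-132-3p were named after their values were seen. Of the 5 liver, kidney and gut miRNAs, all detected, the sum was 777 to 1359 CPM in high-fat and 975 to 1866 CPM in control libraries. High-fat library 3 was the highest high-fat library and lay within the controls. miR-122-5p, the defining miRNA of liver, measured 13.8 CPM in high-fat library 3 and 12.6 to 44.6 CPM in the other high-fat libraries, against 20.6 to 92.6 CPM in controls. miR-215-5p, an intestinal and kidney miRNA, stood apart in that library at 88.0 CPM, against at most 24.4 CPM elsewhere. The part of RNA from these organs in the reads of the cluster and of miR-802-5p was not tested.

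**Figure D4:**
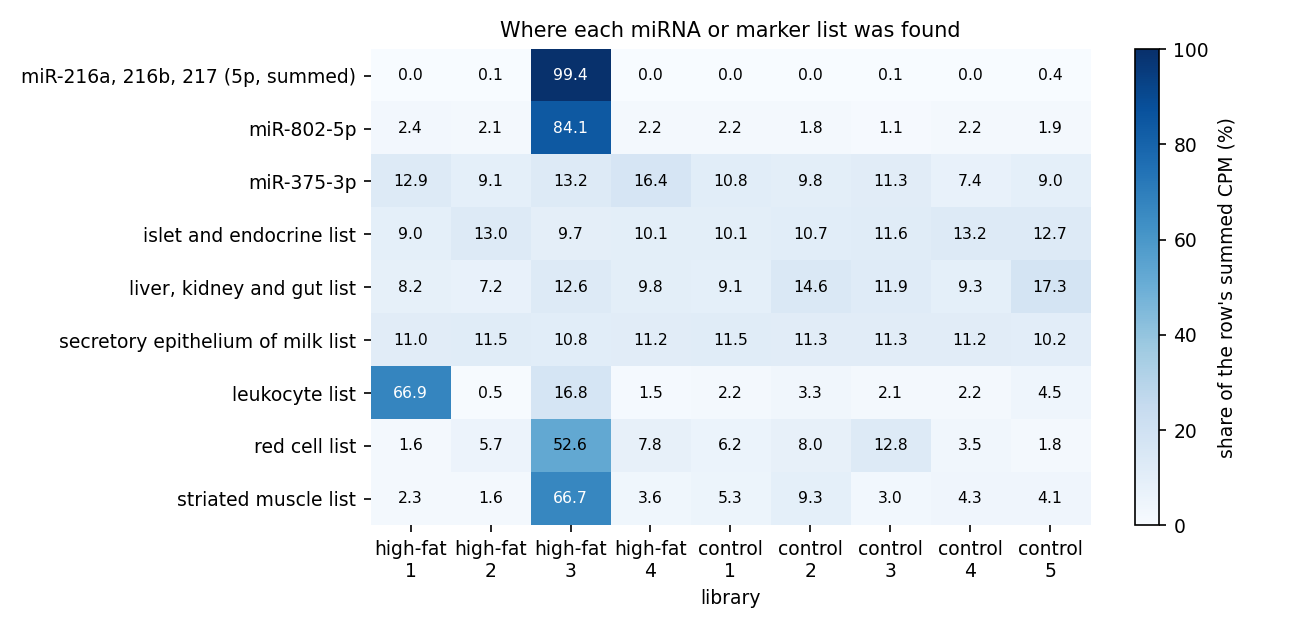
Share (%) of each row's summed CPM found in each library, for the 3 cluster miRNAs together, miR-802-5p, miR-375-3p and the 6 marker lists, with the 4 high-fat libraries left of the 5 controls. High-fat library 3 holds 99.4% of the cluster miRNAs, 84.1% of miR-802-5p, 66.7% of the striated muscle and 52.6% of the red cell sum, while miR-375-3p and the islet, liver and epithelium lists are spread over all libraries. High-fat library 1 holds 66.9% of the leukocyte sum.

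By diet, no list with tested miRNAs gave a call by limma-voom at an adjusted p of 0.05, against the 0% of all names. No striated muscle miRNA reached the count filter, so that list was not tested by diet. Of the 7 tested islet and endocrine miRNAs 4 had log2 fold changes above 0, with a list median of 0.02, beside 0.00 over all tested names. The abundant miR-182-5p, miR-183-5p, miR-96-5p and miR-7a-5p measured -0.24 ± 0.16, -0.28 ± 0.27, 0.50 ± 0.27 and 0.02 ± 0.17 on the log2 scale. The less abundant miR-9-5p, miR-132-3p and miR-7a-1-3p measured 0.82 ± 0.60, -0.72 ± 0.49 and 0.02 ± 0.25. Each of these kept its sign without high-fat library 3. Of the 4 tested liver, kidney and gut miRNAs 1 was above 0, with a median of -0.40. In the secretory epithelium list 4 of 8 were above 0, with a median of 0.03. All 5 leukocyte miRNAs were above 0, with a median of 1.00, although the leukocyte sums of high-fat libraries 2 and 4, 77.7 and 251 CPM, lay below every control. High-fat library 1 held 66.9% of the leukocyte sum and was kept where high-fat library 3 was left out. Both tested red cell miRNAs, miR-451a and miR-486a-5p, were above 0, with a median of 0.30. Without high-fat library 3 both were below 0, at -0.50 ± 0.74 and -0.47 ± 0.59, so that library decided their direction. Without it the leukocyte median was 0.22, with 4 of 4 tested miRNAs above 0, and that of the liver, kidney and gut list was -0.53, with 1 of 4 above 0. The islet and epithelium medians without it were 0.02 and 0.04, beside 0.02 over all 303 names then tested, with 4 of 7 and 4 of 8 above 0. limma-voom called 0 names without it, with 28 at an unadjusted p below 0.05.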

How the data were processed

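The deposited table gives read counts per pair of precursor and mature miRNA, with a column for each dam, named as in the labels. The authors used cutadapt 1.9.1 and the GRCm38 build, per the submitters' processing notes. Aligner, counter and miRBase release were details not given in the sources used here. Counts are taken as reads, not molecules. Commas were removed from 833 cells. These commas kept the columns from being recorded as plain counts, so limma-voom, not a count model, was used.

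Each member has 1 row. For names with several rows the highest row was kept in each library. A name was tested if 4 or more libraries reached 5.25 CPM (10 counts in a library of median size) and its total reached 15 counts. limma 3.58.1 in R 4.3.3, with trimmed mean of M values factors (30% of ratios and 5% of levels trimmed) and diet as the only term, gave two-sided p adjusted by the Benjamini-Hochberg method over all tested names. The fit was checked on simulated counts. Printed CPM use library totals alone, as the choice of members asks.

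No 2 libraries of a diet were alike within sampling noise (lowest chi-square per degree of freedom 50.2). Named miRNAs are the members, their other arms and mir-216c, the 5 most and 1 least correlated with miR-375-3p, the 2 names above and below it in level, and leading members of the lists. Members and lists were chosen with earlier results of these data known.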

Additional observations from a re-analysis of the deposited data

Results flagged for a closer look

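The values of 21 sets of same-diet libraries were searched for an extreme library, by its gap to the nearest neighbour relative to the whole range. Chance gives about 1 in 20 groups. The number found, 8, cannot be read against that rate, since 5 of the 8 are values by which the miRNAs were chosen, or the other arm of one of them. The rest are sums of lists that were also chosen with earlier results of these data known. High-fat library 3 lay far above the other 3 high-fat libraries for miR-216a-5p at 56.9 CPM, miR-216b-5p at 62.8 CPM, miR-217-5p at 192 CPM, miR-802-5p at 673 CPM and miR-216b-3p at 2.47 CPM. The same library lay far above for the red cell sum at 650.2 CPM and the striated muscle sum at 97.9 CPM. Control library 5, the shallowest, lay far below the other controls for the secretory epithelium sum at 461066 CPM. No group of miR-375-3p values was found.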

How the results depend on the processing

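The fold change of miR-375-3p stayed above 0 and short of the threshold in all 16 alternatives. It ran from 0.24 to 0.55 on the log2 scale with 1 library left out and from 0.34 to 0.41 under the others, with adjusted p of 0.317 to 0.748 by limma-voom. That of miR-802-5p, followed through the same settings after seeing the data, ran from 0.35 to 2.90, also short of the threshold in all 16. The count of calls over all names was 0 with other library scalings and with rows summed. It was 4 with no filter, 2 with a quality weight per library and 2 with log2(CPM + 1), and 0 to 4 with 1 library left out, where the 4 came without control library 5. The cause was not tested, and no pancreas-linked miRNA was among these calls. With the replicate number as a block 3 names were called, miR-375-3p measured 0.34 ± 0.22 and miR-802-5p 2.90 ± 1.19. Same-numbered libraries deviated with correlations of -0.13 to 0.19, so the numbers were not taken to pair dams. The mean of miR-375-3p with scaling factors was 4198 CPM in high-fat and 3157 CPM in control milk. Counting only libraries with 3 counts or more, miR-216a-5p, miR-216b-5p and miR-217-5p were each held by 1 library and miR-802-5p by all 9. Thinned to 837817 counts, miR-216a-5p would be expected in 1.52 libraries, against 3 observed. Depth limits any reading of the cluster miRNAs below about 1 to 4 CPM.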

Other observations

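Of the 513 names with 10 or more counts, 9 had over 80% of their summed CPM in a single library, and for 6 of these it was high-fat library 3. Beside the 3 cluster miRNAs and miR-802-5p, these were miR-150-5p at 90.8% and the red cell miRNA miR-144-3p at 80.8%. The remaining 3 were miR-6380 with 92.3% in control library 5, and miR-147-5p with 88.2% and miR-338-5p with 81.8% in high-fat library 1. These names were listed after their values were seen.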
